A study of Mus musculus with 8 samples.

Results

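The 37 genes described here encode the acid hydrolases of the lysosome, the proteins that assist them, the main proteins of the lysosomal membrane, 2 transcription factors of lysosomal genes, and the subunits of the vacuolar ATPase (V-ATPase), the proton pump that acidifies lysosomes and secretory granules. They were chosen by symbol from the 35596 genes of a table of TPM. TPM is a transcript abundance per unit of length and relative to the library's total. Earlier results of these data were known when the genes were chosen. They comprise 6 cathepsins and other lysosomal proteases, 4 glycosidases and acid lipase, 3 activators and soluble proteins, 6 membrane proteins, 2 transcription factors, and 16 V-ATPase genes: 6 of the membrane-embedded V0 sector, 8 of the cytosolic V1 sector and 2 accessory proteins. RNA came from hand-picked pancreatic islets, clusters of endocrine cells, with 4 libraries in each of 2 groups; all mice were males of the inbred strain C57BL/6J. The obese group ate food with 10% fat for 9 weeks, followed by 18 weeks at 60% fat. The weight-cycled group alternated every 9 weeks, from 60% fat to 10% and back to 60%. Both groups thus spent 18 weeks in total on the 60% diet and 9 on the 10% diet, with the order changed. A period of weight loss and regain cannot be told apart from the shorter last run on the 60% diet, 9 against 18 weeks. The labels name no animal for any library, so p-values measure the spread between libraries, which may be technical.

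Lysosomes digest proteins, glycans and lipids that reach them by endocytosis or autophagy, and their hydrolases work at acid pH. The V-ATPase sets that pH: its V1 sector hydrolyses ATP and drives the proteolipid ring of the V0 sector, which carries protons across the membrane. In beta cells the same pump acidifies the insulin granule, where the prohormone is processed, and lysosomes degrade surplus granules. TFEB and its relative TFE3 bind CLEAR elements, E-box sequences near the start of many lysosomal and V-ATPase genes, and enter the nucleus when mTORC1 at the lysosome is inactive.

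In TPM as deposited, 15 of the 36 members tested (41.7%) were lower in weight-cycled islets and none was higher, at a limma adjusted p of 0.05 over 8127 genes; 21 were not called. Among all tested genes 23.9% were called lower and 1.21% higher, so lower values were common across these islet libraries. The median log2 fold change, weight-cycled minus obese on the log2(TPM + 1) scale, was -0.25 for the members and -0.26 for all tested genes. Tested members were below 0 in 31 of 36 cases. Called genes were Atp6v1a, Atp6v1b2, Atp6v1c1, Atp6v1d, Atp6v1e1 and Atp6v1h of the V1 sector, Atp6v0a1, Atp6v0c and Atp6v0d1 of the V0 sector, and Psap, Lamp1, Tpp1, Grn, Hexa and Tfe3. The V-ATPase held 9 calls among 16 genes and the remaining members held 6 among 20. All 4 weight-cycled libraries lay below all 4 obese libraries for 15 tested members (Lamp2 and the called genes other than Grn), against 21.1% of tested genes, and above them for 2 members, Gla and Ctsl, against 1.3%. Tfeb, at a mean of 0.465 TPM, was the member that did not reach the mean of 1 TPM needed to enter the test. In bulk islet RNA, fewer cells of a type and less RNA per cell cannot be told apart.

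The lower calls depended on how libraries were scaled. When each library was divided by its median-of-ratios size factor, the median of all tested genes moved from -0.26 to -0.0090 and that of the members from -0.25 to 0.063. This moves all genes of a library together: members below 0 went from 31 to 16 of 36, and all tested genes below 0 from 6950 to 4195 of 8127. No member was then called lower (0.566% of all genes were) and Gla was called higher (1.24% of all genes were). In either direction, 11 of 36 members were at an unadjusted limma p under 0.05, beside 2469 of all 8127 tested genes. With each library's trend with transcript length removed, Atp6v1a remained lower and Gla was higher, against 1.53% and 1.78% of all genes, and the members' median was -0.029. Without the filter on low values no member was called by limma, the smallest adjusted p being 0.0912. There, 24 of 37 members were at an unadjusted limma p under 0.05, beside 5686 of all 19482 genes. Single libraries also decided the count in unscaled TPM. It was 0 when obese replicate 1, 2 or 3, or replicate 2, 3 or 4 of the weight-cycled group, was left out. Between 0 and 0.597% of all genes were then called lower. Each of these fits had 16 to 22 members at an unadjusted limma p under 0.05, beside 2670 to 3459 of all tested genes. The count of lower members was 14 without obese replicate 4 (20.6% of all genes lower and 0.69% higher). It was 24 without weight-cycled replicate 1 (54.4% and 3.35%). Falls and rises refer to TPM as deposited unless a scaled value is named.

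Promoter sequences of 30 of the 37 members were found in RefSeq (GRCm38.p6), each window running from 250 bases before to 50 bases after an annotated start. The E-box CACGTG, the core of the CLEAR element, lay in a window of 11 of these 30 genes (36.7%), against 12.4% of tested genes with a window and 8.09% of all genes in the table. The longer TCACGTGA, which contains that E-box, lay in 7 of 30 (23.3%), against 2.57% and 1.12%. With a G before and a C after these letters, a 10-base form of the CLEAR element, it lay in 0 of 30, against 0.919% of tested genes. Among 87 genes of further lysosomal and autophagy lists, the E-box lay in 25.3%, TCACGTGA in 9.2% and the 10-base form in 2.3%. All 3 motifs are palindromes, so both strands were read at once. The E-box was present in 3 of 12 members called lower and in 8 of 17 tested members that were not called (25% and 47.1%). The stretches below show the kinds of arrangement seen upstream of the start, with the motif in capitals: Lamp1 has 4 copies and fell, Atp6v1a has 1 and fell, Atp6v0b has 2 and was not called, and Gaa has 1 and was not called. A match describes the letters in the window and is not evidence of binding.
Lamp1 (chr8:13159080-13159160, plus strand): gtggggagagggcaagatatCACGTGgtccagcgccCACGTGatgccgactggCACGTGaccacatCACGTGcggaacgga
Atp6v1a (chr16:44139364-44139411, minus strand): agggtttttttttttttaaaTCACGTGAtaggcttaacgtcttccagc
Atp6v0b (chr4:117887334-117887385, minus strand): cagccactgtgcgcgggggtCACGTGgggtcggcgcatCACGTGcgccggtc
Gaa (chr11:119267803-119267848, plus strand): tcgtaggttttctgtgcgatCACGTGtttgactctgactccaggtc

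In the V1 sector, 6 of 8 subunits fell, beside 23.9% of all tested genes, and the V1 genes had a median log2 fold change of -0.43, beside -0.26. After scaling 0 of 8 were called by limma (2 at an unadjusted p under 0.05, Atp6v1d below 0 and Atp6v1f above), and the median was -0.11, beside -0.0090. Atp6v1b2 (ENSMUSG00000006273.14, chromosome 8, 69088646 to 69113711, plus strand, build mm10) encodes the B2 subunit, which forms the ATP-hydrolysing head together with subunit A. Its TPM was 45.6, 43.2, 44.3 and 41.5 in obese replicates 1 to 4 and 35.6, 28.5, 32.8 and 30.7 in weight-cycled replicates 1 to 4. Every weight-cycled library was below every obese library, and the obese libraries were close together. The mean fell from 43.6 ± 1.76 to 31.9 ± 3.04 TPM (± SD, n = 4 per group), by 0.44 on the log2 scale (SE 0.0905, limma adjusted p = 0.0302), with -0.12 after scaling (adjusted p = 0.317). Atp6v1a, the catalytic subunit A, stood at 14.4, 16.6, 14.9 and 13.6 TPM in obese and 11.8, 8.61, 10.6 and 10.7 TPM in weight-cycled libraries. Again the groups did not overlap, with weight-cycled replicate 2 lowest. It fell by 0.48 (SE 0.109, limma adjusted p = 0.0321), with -0.33 when the length trend was removed (adjusted p = 0.0477), the only lower call among members in that fit.

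Atp6v1d encodes subunit D, part of the rotating central stalk. It measured 24.0, 21.1, 20.04 and 17.3 TPM in obese and 15.6, 11.7, 15.7 and 12.5 TPM in weight-cycled libraries, and fell by 0.54 (SE 0.126, limma adjusted p = 0.0322). The lowest obese library, replicate 4, lay above the highest weight-cycled one. Atp6v1e1, a peripheral stalk subunit that ties the head to V0, was at 69.2, 65.3, 61.4 and 56.6 TPM against 52.0, 38.3, 48.4 and 49.8 TPM, and fell by 0.42 (SE 0.110, limma adjusted p = 0.0345). Atp6v1h, a regulatory subunit that bears on ATP hydrolysis and on assembly, was at 29.4, 27.3, 27.5 and 25.2 TPM against 23.1, 18.9, 20.6 and 20.9 TPM. It fell by 0.37 (SE 0.0913, limma adjusted p = 0.0334). In both genes weight-cycled replicate 1 was the highest of its group and replicate 2 the lowest, and the groups stayed apart. Atp6v1c1, which links the head to the V0 sector and is released when the pump comes apart, fell from 27.2 ± 1.69 to 19.6 ± 3.89 TPM (± SD, n = 4 per group), with limma adjusted p = 0.0359.

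The small V1 subunits G1 and F were not called. Atp6v1g1, a peripheral stalk subunit, had means of 79.5 ± 3.40 and 68.7 ± 7.91 TPM in the obese and the weight-cycled group, with overlapping groups (log2 fold change -0.21, limma adjusted p = 0.0960). Atp6v1f, a rotor subunit, was at 134, 146, 154 and 136 TPM and 134, 158, 146 and 184 TPM. Its groups overlapped and weight-cycled replicate 4 was the highest of all libraries (log2 fold change 0.12, adjusted p = 0.367). TPM of all V1 genes summed to 391 to 430.2 in obese and 339 to 407 in weight-cycled libraries, and these ranges overlap.

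Of the V0 sector, 3 of 6 subunits fell, beside 23.9% of all tested genes. The V0 genes had a median log2 fold change of -0.29, beside -0.26 for all tested genes. After scaling 0 of 6 were called by limma, and the median was 0.0016, beside -0.0090. Atp6v0c (ENSMUSG00000024121.13, chromosome 17, 24163866 to 24169702, minus strand) encodes subunit c, the proteolipid that makes up most of the proton-carrying ring. Its TPM was 156, 160.1, 136 and 133 in obese and 121, 89.7, 114 and 98.7 in weight-cycled libraries. All weight-cycled values were lower, and the mean dropped from 146 ± 13.6 to 106 ± 14.2 TPM (± SD, n = 4 per group). The log2 fold change was -0.47 (SE 0.112, limma adjusted p = 0.0322), against -0.14 after scaling (adjusted p = 0.292). Atp6v0b, the related proteolipid c'' of the same ring, did not follow this pattern: it was at 159.9, 174, 186 and 168 TPM in obese and 157, 176, 185 and 247 TPM in weight-cycled libraries. Weight-cycled replicate 4 held its highest value and the groups overlapped (log2 fold change 0.13, adjusted p = 0.408). The log2 ratio of Atp6v0c to Atp6v0b, a quantity chosen after the values were seen and therefore not tested, was -0.037, -0.12, -0.45 and -0.34 in obese libraries. It was -0.38, -0.97, -0.70 and -1.32 in weight-cycled libraries, so that weight-cycled replicate 1 fell inside the obese range.

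Atp6v0a1 encodes the a1 subunit, through which protons enter and leave the membrane and which differs between compartments. Its TPM was 10.8, 11.7, 9.31 and 9.71 in obese and 9.14, 5.41, 7.12 and 6.62 in weight-cycled libraries. Weight-cycled replicate 1 came close to obese replicate 3, and the groups did not overlap (log2 fold change -0.51, SE 0.137, limma adjusted p = 0.0353). Atp6v0d1, the subunit that couples the stalk to the ring, was at 40.2, 40.7, 36.5 and 37.1 TPM and 32.5, 26.2, 33.4 and 31.5 TPM, again without overlap. It fell by 0.32 (SE 0.0963, limma adjusted p = 0.0414), a direction that scaling turned to 0.0045. Atp6v0a2, an a subunit known from Golgi and endosomes, and Atp6v0e, a small membrane subunit, overlapped between groups, with log2 fold changes of -0.27 and -0.073 (adjusted p = 0.180 and 0.485). The accessory protein Atp6ap2, the (pro)renin receptor, was at 57.6, 54.6, 45.3 and 45.7 TPM in obese and 45.5, 37.2, 43.6 and 44.2 TPM in weight-cycled libraries. Its log2 fold change was -0.24 (limma adjusted p = 0.0901), with weight-cycled replicate 1 between the obese libraries in an otherwise lower group. Atp6ap1, the other accessory protein, was at 65.7, 67.0, 62.0 and 58.2 TPM and 65.9, 67.6, 64.6 and 70.3 TPM, and its groups overlapped (log2 fold change 0.086, adjusted p = 0.399).

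**Figure D1:**
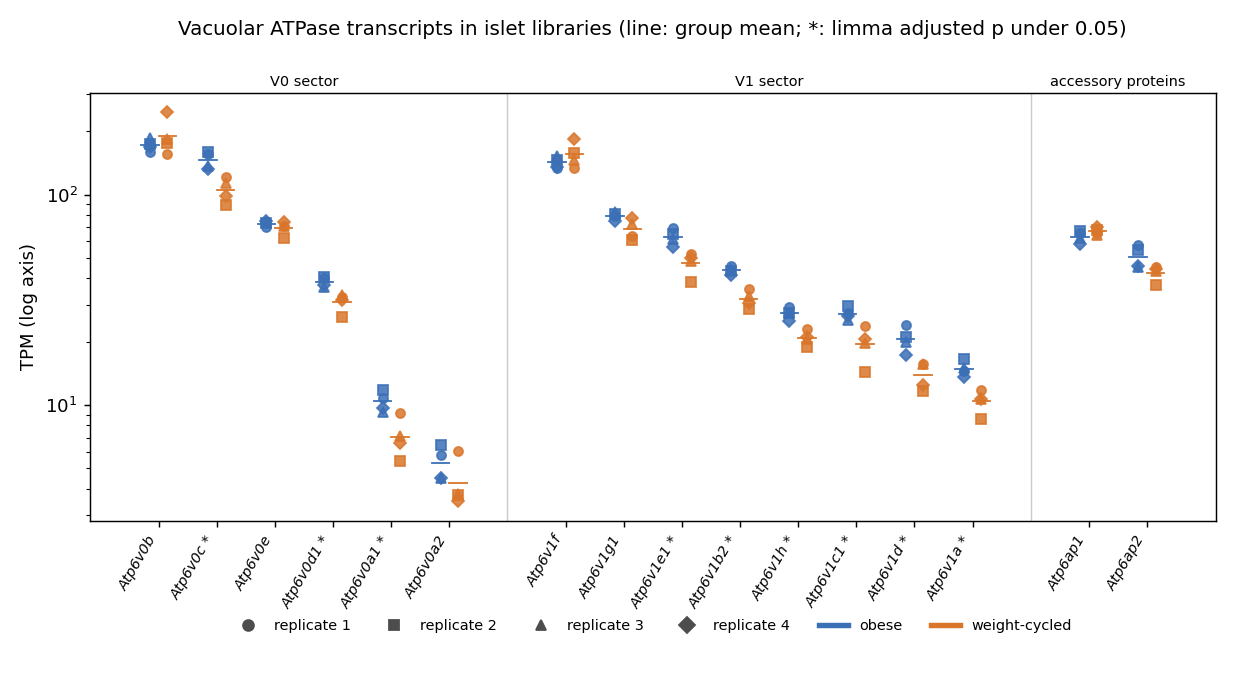
TPM (log axis) of the 16 vacuolar ATPase genes in each of the 8 libraries, obese in blue and weight-cycled in orange, with the marker shape giving the replicate and the line the group mean; an asterisk marks limma adjusted p under 0.05. The 9 marked genes have all weight-cycled points below all obese points, while Atp6v0b, Atp6v1f and Atp6ap1 overlap.

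Several V-ATPase subunits have paralogs used in other tissues, and for the B, C, d, E and G subunits the islet libraries held almost only 1 form. Atp6v1b1, Atp6v1c2, Atp6v1e2 and Atp6v1g3, forms best known from kidney and other specialised epithelia or from testis, were listed at 0 in all 8 libraries, and Atp6v0d2 in 7. Among a subunits, Atp6v0a1 made up 64.3% ± 1.54 of the summed TPM in the obese and 59.8% ± 3.51 in the weight-cycled group (SD, n = 4 per group), and Atp6v0a2 32.6% ± 1.85 and 35.9% ± 3.07. The osteoclast form Tcirg1 (a3) had a mean of 0.439 TPM and the kidney form Atp6v0a4 0.0635 TPM. Ratios within a library do not move with library scaling, and 3 pairs had both genes at 1 TPM or more. The log2 ratio of Atp6v0a2 to Atp6v0a1 was -0.98 ± 0.12 in the obese and -0.74 ± 0.21 in the weight-cycled group, a difference of 0.24 (two-sided exact permutation p = 0.171, adjusted over the 3 ratios p = 0.514). For Atp6v0e2 to Atp6v0e the difference was -0.12 (exact permutation p = 0.4, adjusted p = 0.6), and for Atp6v1g2 to Atp6v1g1 it was -0.029 (exact permutation p and adjusted p = 0.857). The smallest p that 4 against 4 libraries allow is 0.0286, and at this size no change in paralog use was detectable.

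Lysosomal proteases showed 1 call among 6 (16.7%), beside 23.9% of all tested genes called lower. Their median log2 fold change was -0.185, beside -0.26 for all tested genes. Tpp1 (ENSMUSG00000030894.5, chromosome 7, 105744811 to 105752235, minus strand), tripeptidyl peptidase 1, removes tripeptides from the ends of proteins and is the enzyme lost in a childhood neuronal ceroid lipofuscinosis. It was at 4.81, 4.70, 4.53 and 3.31 TPM in obese and 2.63, 2.04, 2.66 and 2.92 TPM in weight-cycled libraries. Even the low obese replicate 4 exceeded every weight-cycled library, and the mean fell from 4.34 ± 0.695 to 2.56 ± 0.375 TPM (± SD, n = 4 per group). Its log2 fold change, -0.58 (SE 0.128, limma adjusted p = 0.0315), was the most negative among the tested members, and it was -0.33 after scaling (adjusted p = 0.0847). Ctsd, the aspartic protease cathepsin D, was at 74.9, 74.4, 70.02 and 64.9 TPM and 67.5, 55.5, 58.3 and 57.3 TPM. In total 3 of its weight-cycled libraries lay below the obese range, and the log2 fold change of -0.25 missed the threshold (adjusted p = 0.0591), with 0.076 after scaling.

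The cysteine and serine peptidases were not called. Ctsb, Ctsz and Ctsa (cathepsins B, Z and A) had log2 fold changes of -0.17, -0.20 and -0.17 (limma adjusted p = 0.146, 0.207 and 0.225), all above 0 after scaling. Ctsl, cathepsin L, a cysteine protease that also processes prohormones in some endocrine cells, was at 49.8, 49.6, 49.3 and 43.4 TPM in obese and 52.0, 50.1, 49.8 and 53.1 TPM in weight-cycled libraries. Every weight-cycled library was at or above the obese ones by a narrow margin (log2 fold change 0.094, adjusted p = 0.360). The obese spread came mostly from replicate 4.

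Among 4 glycosidases and acid lipase, Hexa was called lower (25%), beside 23.9% of all tested genes. The 4 genes had a median log2 fold change of -0.19, beside -0.26 for all tested genes. Hexa (ENSMUSG00000025232.8, chromosome 9, 59539540 to 59565109, plus strand) encodes the alpha subunit of beta-hexosaminidase, which trims GM2 ganglioside. Its TPM was 60.2, 57.0, 60.3 and 62.8 in obese and 51.3, 47.3, 53.2 and 49.3 in weight-cycled libraries, without overlap. It fell by 0.25 (SE 0.0805, limma adjusted p = 0.0441), and the sign turned to 0.073 after scaling. Gaa, acid alpha-glucosidase, which breaks down lysosomal glycogen, was at 18.2, 22.4, 18.4 and 15.5 TPM and 18.0, 10.6, 13.7 and 11.9 TPM. Weight-cycled replicate 1 reached into the obese range and the others lay below it (log2 fold change -0.44, limma adjusted p = 0.0514).

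Gla (ENSMUSG00000031266.6, chromosome X, 134588149 to 134601125, minus strand), alpha-galactosidase A, which removes terminal galactose from glycolipids, went the other way. Its TPM was 2.22, 2.31, 2.33 and 1.86 in obese and 2.77, 2.68, 2.45 and 2.80 in weight-cycled libraries, so that every weight-cycled library was above every obese one. Means were 2.18 ± 0.219 and 2.67 ± 0.156 TPM. In TPM as deposited the log2 fold change was 0.21 and not called (SE 0.101, limma adjusted p = 0.115). It was 0.45 after scaling (adjusted p = 0.0411) and 0.45 with the length trend removed (adjusted p = 0.0285), both called. The scaled call was kept without weight-cycled replicate 1 (20% of all genes higher) and lost without any other single library (0 to 0.707%). Lipa, lysosomal acid lipase, which frees cholesterol from its esters, was near the filter at a mean of 1.27 TPM and overlapped (log2 fold change -0.13, adjusted p = 0.367).

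Of the 3 activators and soluble proteins, Psap and Grn fell and Npc2 was not called, beside 23.9% of all tested genes called lower. The 3 had a median log2 fold change of -0.50 (-0.21 after scaling), beside -0.26 (-0.0090) for all tested genes. Psap (ENSMUSG00000004207.14, chromosome 10, 60277627 to 60302597, plus strand) encodes prosaposin, the precursor of the saposins that present sphingolipids to hydrolases. With 207, 200.4, 167 and 170.3 TPM in obese and 157, 103, 129.9 and 119 TPM in weight-cycled libraries, it had the highest mean among the genes called. The groups did not overlap, and the mean fell by 31.7%, from 186 ± 20.2 to 127 ± 22.8 TPM (± SD, n = 4 per group). The log2 fold change was -0.56 (SE 0.129, limma adjusted p = 0.0322), and -0.23 after scaling (adjusted p = 0.144). Grn, progranulin, which is cleaved to granulins in the lysosome and binds prosaposin, was at 12.1, 11.6, 9.22 and 9.36 TPM and 9.90, 6.46, 7.11 and 5.55 TPM. Here weight-cycled replicate 1 lay inside the obese range, and the call (log2 fold change -0.50, SE 0.153, adjusted p = 0.0417) came with overlapping groups. Npc2, which hands cholesterol to NPC1, was at 36.2 ± 1.84 and 33.9 ± 1.36 TPM (log2 fold change -0.092, adjusted p = 0.363).

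Lamp1 was the membrane protein called among 6 (16.7%), beside 23.9% of all tested genes called lower. The 6 had a median log2 fold change of -0.20, beside -0.26 for all tested genes. Lamp1 (ENSMUSG00000031447.7, chromosome 8, 13159161 to 13175338, plus strand) encodes a heavily glycosylated protein that coats the inner face of the lysosomal membrane; its 4 E-boxes are shown above. It was at 127, 126, 118 and 111 TPM in obese and 104, 69.1, 86.9 and 83.7 TPM in weight-cycled libraries. All weight-cycled libraries were lower, weight-cycled replicate 2 most of all, and the mean fell from 121 ± 7.64 to 85.8 ± 14.2 TPM (± SD, n = 4 per group). The log2 fold change was -0.50 (SE 0.117, limma adjusted p = 0.0322), -0.17 after scaling and -0.23 with the length trend removed. Npc1, the membrane cholesterol transporter, was at 1.22, 1.63, 1.32 and 1.21 TPM and 1.29, 0.615, 0.756 and 0.730 TPM, close to the filter. Weight-cycled replicate 1 overlapped the obese range (log2 fold change -0.35, limma adjusted p = 0.0563). Lamp2, whose LAMP2A form imports proteins for chaperone-mediated autophagy, had all weight-cycled libraries at 60.5 to 69.2 TPM, below the obese 70.9 to 78.5 TPM. Its log2 fold change of -0.18 was not called (adjusted p = 0.105).

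Scarb2, the carrier of beta-glucocerebrosidase, Mcoln1, the calcium channel that signals to TFEB, and Cd63, a tetraspanin, overlapped between groups. Their log2 fold changes were -0.23, -0.17 and -0.17 (limma adjusted p = 0.106, 0.340 and 0.202). Cd63 had the highest level of all members, with a mean of 427 TPM over the 8 libraries. Tfe3 (ENSMUSG00000000134.17, chromosome X, 7762560 to 7775202, plus strand) was called lower: 2.03, 2.15, 1.74 and 1.62 TPM in obese and 1.46, 0.967, 1.10 and 1.14 TPM in weight-cycled libraries. The groups did not overlap (log2 fold change -0.41, SE 0.113, limma adjusted p = 0.0357), and at this level the added 1 TPM understates the change; the mean TPM fell by 38.0%. Tfeb was at 0.677, 0.535, 0.491 and 0.499 TPM and 0.456, 0.301, 0.365 and 0.398 TPM, also without overlap, and was not tested. These are transcript levels, while the activity of both factors is set largely by where the protein is in the cell, which was not measured.

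**Figure D2:**
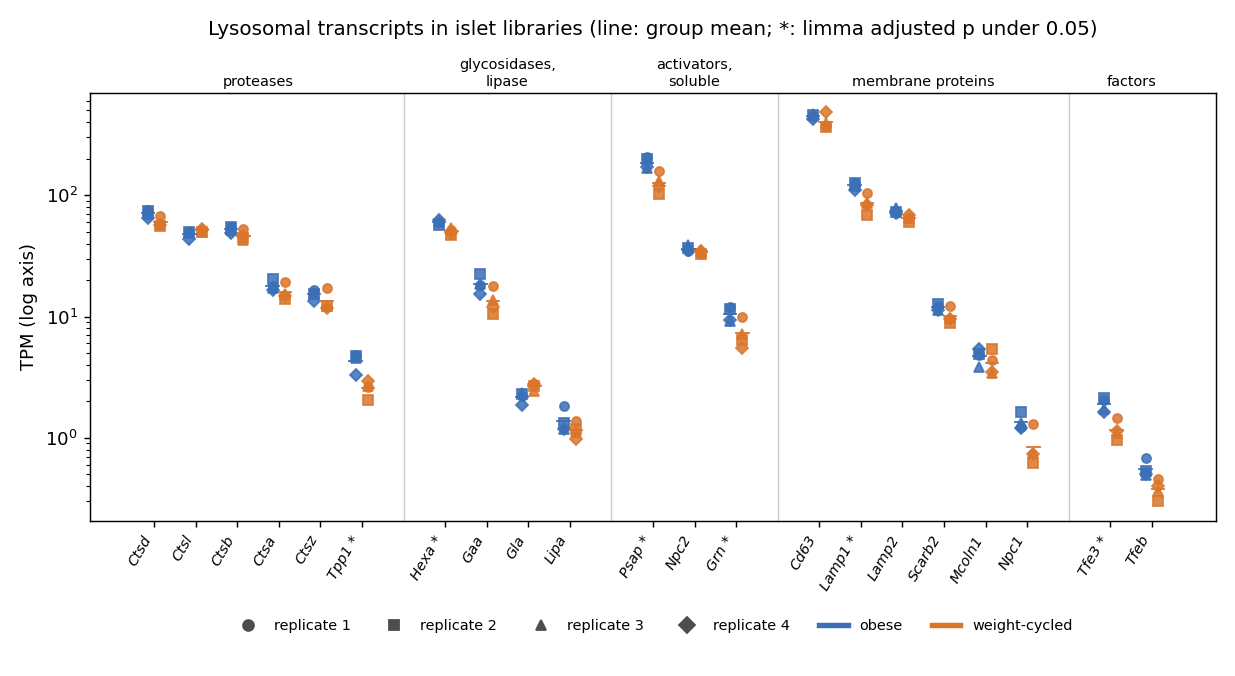
TPM (log axis) of the 21 lysosomal enzymes, activators, membrane proteins and transcription factors in each of the 8 libraries, obese in blue and weight-cycled in orange, with lines at group means; an asterisk marks limma adjusted p under 0.05. Levels run from Tfeb, below 1 TPM, to Cd63, and Gla and Ctsl are the genes whose weight-cycled points all lie above the obese ones.

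Summed over all 37 members, obese libraries held 2168 ± 91.8 TPM and weight-cycled libraries 1882 ± 142 TPM (SD, n = 4 per group). The lowest obese library, replicate 4 at 2037 TPM, was just under the highest weight-cycled library, replicate 4 at 2043 TPM. Weight-cycled replicate 1 was the highest of its group for 21 of 36 tested members, and for 63.7% of all tested genes. Weight-cycled replicate 2 was the lowest of its group for 25 members, and for 52.8% of all tested genes. Size factors ran from 1.02 to 1.22 in obese libraries and were 1.05, 0.786, 0.909 and 0.845 in weight-cycled replicates 1 to 4.

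**Figure D3:**
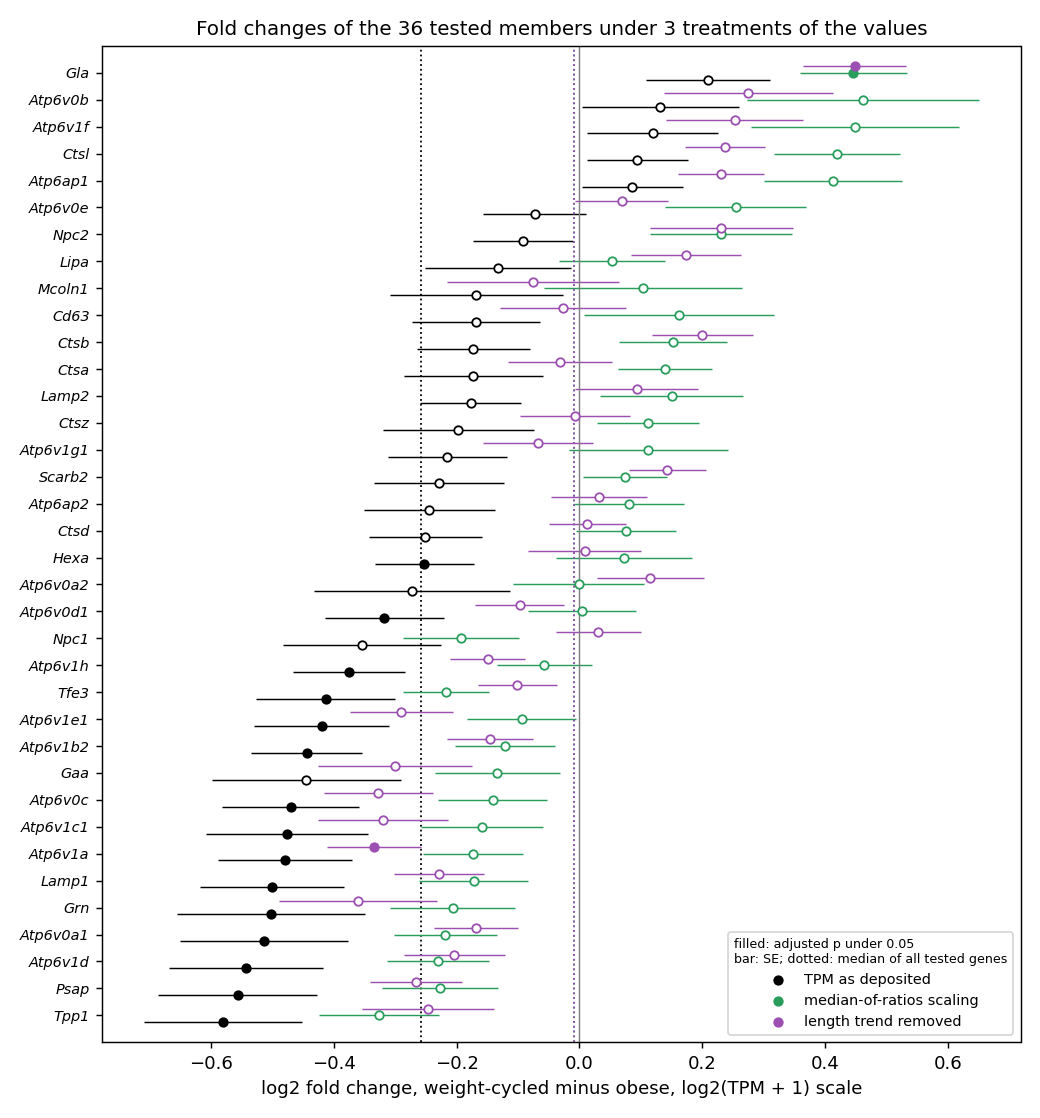
Log2 fold change (weight-cycled minus obese, log2(TPM + 1) scale) of the 36 tested members with the SE as a bar, in TPM as deposited (black), after median-of-ratios scaling (green) and with the length trend removed (purple); filled points have limma adjusted p under 0.05 and dotted lines mark the median of all tested genes. Black points lie below 0 for 31 members and green points for 16, and Gla is the member whose filled points lie above 0.

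Fold changes also followed transcript length over the whole table, and the members were compared with genes of like length. In 5 bins of equal size by longest transcript, the median log2 fold change of all genes was -0.070 in the shortest and -0.20, -0.26, -0.32 and -0.37 in the longer bins in turn. The members' medians in the same bins were -0.20, -0.29, -0.34, -0.43 and -0.23, over 7, 8, 6, 10 and 5 genes. Lower calls numbered 2, 5, 3, 5 and 0 in these bins. The share of all tested genes called lower in each bin was not computed, so these counts have no comparison with genes of like length. The members' median was below that of all genes in the shorter 4 bins and above it in the longest, which held 5 members. With the longest transcript used in place of the median one to remove the trend, no member was called lower (2.01% of all genes) and Ctsl and Gla were called higher (2.21%), with 16 members at an unadjusted limma p under 0.05. Quantile scaling, which forces all libraries to 1 distribution, left Atp6v0c, Lamp1 and Psap lower (1.5% of all genes) and Gla higher (2.03%).

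**Figure D4:**
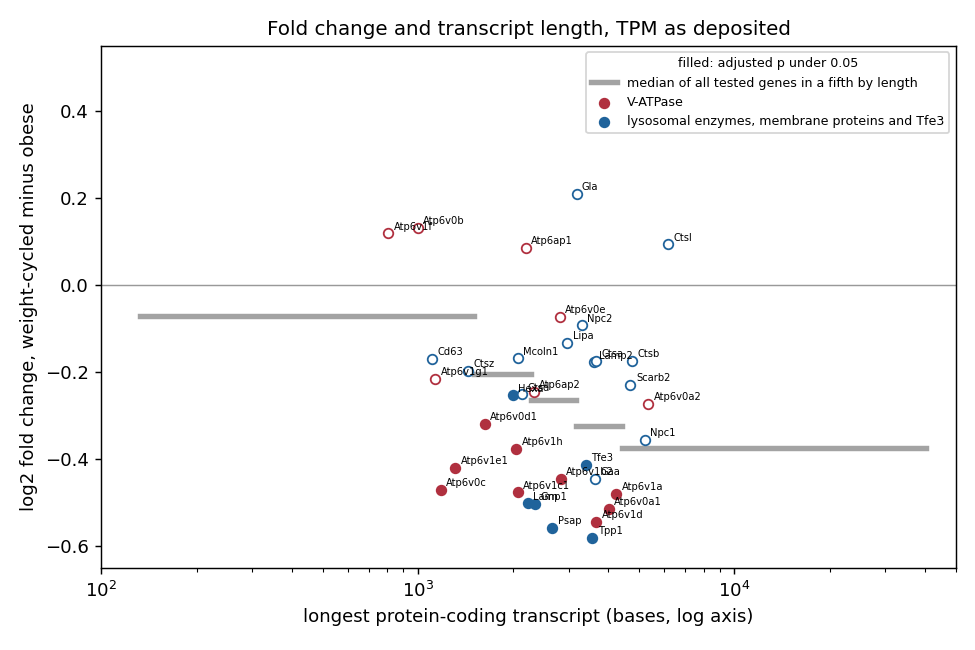
Log2 fold change in TPM as deposited against the longest protein-coding transcript (bases, log axis) for the 36 tested members, V-ATPase genes in red and the others in blue, filled where limma adjusted p was under 0.05; grey bars give the median of all tested genes in each of 5 bins by length. The grey bars step down from -0.070 to -0.37. Filled points are genes called lower, so their place below the bar at their length is no result about length.

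Without weight-cycled replicate 1, the scaled values gave 6 lower calls (Atp6v0a1, Grn, Npc1, Psap, Tfe3 and Tpp1) and 7 higher calls (Atp6ap1, Atp6v0b, Atp6v0e, Atp6v1f, Ctsl, Gla and Npc2), beside 17.9% and 20% of all genes. With the length trend removed, leaving out that library gave 8 lower calls (Atp6v0c, Atp6v1a, Atp6v1c1, Atp6v1e1, Gaa, Grn, Lamp1 and Psap) and 7 higher (Atp6ap1, Atp6v0b, Atp6v1f, Ctsb, Ctsl, Gla and Npc2), beside 13.5% and 12.8%. Grn and Psap were lower in both, and Atp6ap1, Atp6v0b, Atp6v1f, Ctsl, Gla and Npc2 higher in both. Npc1, called lower in the scaled fit, was under 1 TPM in each weight-cycled library kept and reached the filter through the obese ones. Leaving out any single library other than weight-cycled replicate 1 gave no lower call, scaled or with the length trend removed. It gave 1 higher call, Gla, for weight-cycled replicate 3 with the length trend removed. Calls were rare among all genes too: 0 to 0.646% were lower in these fits, and 0 to 83 genes were higher. Between 6 and 14 members were then at an unadjusted limma p under 0.05, beside 1574 to 2088 of all tested genes.

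**Figure D5:**
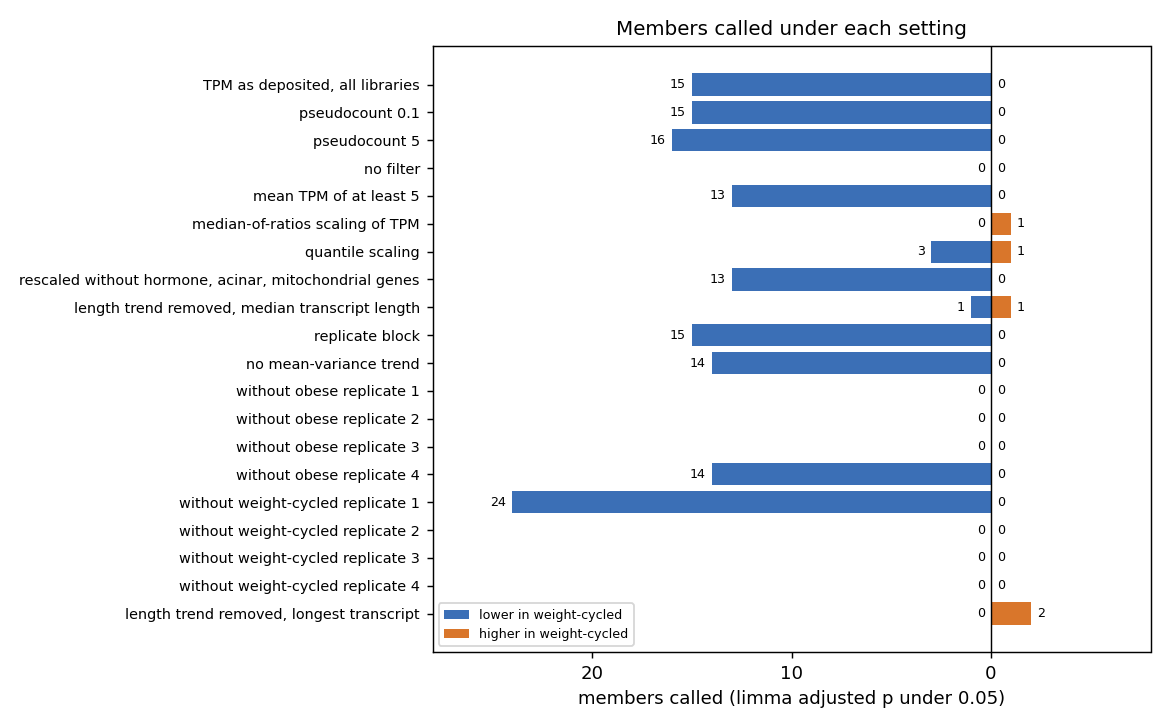
Number of members called by limma (adjusted p under 0.05) under each way of scaling and filtering and with each library left out, lower in weight-cycled islets drawn to the left and higher to the right. Counts of lower members run from 0 to 24 and counts of higher members from 0 to 2 in the settings drawn.

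The wider lysosomal and autophagy pathways were read from 5 further lists. Of their 91 tested genes, 27 fell (29.7%) and 1 rose, beside 23.9% and 1.21% of all tested genes. After scaling none was lower and 2, Aga and Gusb, were higher, with limma. Lysosomal enzymes outside the 37 had 11 lower and 1 higher of 33. Aga, which cleaves glycan-linked asparagine, rose by 0.45 (SE 0.0940, adjusted p = 0.0303), and by 0.78 after scaling (adjusted p = 0.0411). Ctsf, a cysteine cathepsin, fell by 0.38, and Arsb and Manba, which act on dermatan sulfate and on mannose-containing glycans, had log2 fold changes of -0.59 and -0.54. Of 20 membrane and sorting genes 5 fell, among them the sialomucin Cd164 (-0.64), the sorting receptor Sort1 (-0.60) and Cln6 (-0.61), an ER protein that helps export lysosomal enzymes. Laptm4b (-0.31) had the next smallest p.

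Of 7 tested V-ATPase paralogs and assembly factors, Rnasek, a V0-associated protein, and Wdr7, a partner of the V1-assembling rabconnectin complex, fell, with log2 fold changes of -0.40 and -0.51. In lysosomal nutrient sensing 4 of 13 fell: the Rag GTPase Rragc (-0.51), the Ragulator anchor Lamtor1 (-0.30), and Flcn and Fnip1 (-0.41 and -0.45), which together act on RagC. In autophagy 5 of 18 fell, including the ATG8 proteins Map1lc3a (-0.37) and Gabarapl1 (-0.36), the conjugating enzyme Atg3 (-0.37) and Uvrag (-0.47). These lists had 28.6%, 30.8% and 27.8% of their tested genes lower, in turn, beside 23.9% of all tested genes. Their median log2 fold changes were -0.14, -0.18 and -0.24, beside -0.26 for all tested genes. After scaling none of the 11 genes that fell was called, and Lamtor1 was at 0.018.

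Markers of cell types that an islet preparation can hold were read beside these values. Macrophages are rich in lysosomes, and the summed TPM of 12 macrophage markers was 60.4 to 78.0 in obese and 46.1 to 59.0 in weight-cycled libraries, without overlap. Of 9 tested, Lyz2, Ctss and Tyrobp fell, beside 23.9% of all tested genes. The 9 had a median log2 fold change of -0.24, beside -0.26 for all tested genes. After scaling 0 of the 9 were called lower by limma, and their median was 0.0021, beside -0.0090. The defining genes Adgre1, Cd68 and Csf1r averaged under 1 TPM and none of the 12 was at 0. Endothelial markers summed to 46.3 to 74.9 TPM in obese and 25.3 to 53.1 TPM in weight-cycled libraries, with Esm1 and Kdr lower among 6. Of 10 beta-cell markers 6 fell (Slc2a2, Mafa, Slc30a8, Nkx6-1, Ucn3 and Pdx1). Both lists were further below all tested genes than the macrophage list. Median log2 fold changes were -0.54 for endothelial and -0.61 for beta-cell markers, and -0.265 and -0.29 after scaling. The alpha-cell list had Ttr higher among 6, and delta and PP markers had no call among 4 and none at an unadjusted limma p under 0.05.

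Acinar markers had no call among 9 (none at an unadjusted limma p under 0.05), and weight-cycled replicate 1 had a sum of 7601 TPM beside 3272 to 3748 TPM in its group's remaining libraries and 2579.6 to 4762 TPM in obese libraries. Duct markers had Krt7 lower of 2 tested, and T and B cell markers Cd79a lower of 1 tested, with the other 6 at 0 in at least 1 library. Fibroblast and stellate markers were all under 1 TPM and none was tested. After scaling, Slc2a2 and Esm1 were the marker genes still called. The part of any of these cell types in the values of the 37 genes was not tested. Beta-cell markers, mostly insulin, summed to 785488 to 813236 TPM over the 8 libraries, as in islet tissue.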

How the data were processed

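Messenger RNA of islets from 8 libraries, 4 per group, was sequenced. The authors deposited 1 TPM value per gene and library, from Salmon 1.5.2 and build mm10, per the submitters' processing notes. Its annotation, and how transcripts were summed, is not given in the sources used here. Columns summed to 999930 to 999949 TPM, so a value is a share of its library, with no record of depth. Salmon divides reads of near-identical copies by estimate.

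Symbols were found for 35527 of 35596 gene IDs (99.8%). Coordinates and lengths came from GENCODE M21 (GRCm38, as mm10). Genes with a mean of at least 1 TPM (8127) entered limma 3.58.1 (R 4.3.3) on log2(TPM + 1), two-sided, with a mean-variance trend, no covariate and Benjamini-Hochberg adjustment over all tested genes at 0.05. Fold changes on this scale understate low genes. Scaling used median-of-ratios size factors; length trends were removed per library by loess. Paralog ratios were tested by exact permutation over 70 assignments. On simulated data with 7992 genes tested, the fit recovered 48.3% of log2 changes of 0.5 and 90.3% of changes of 1, with 2 unchanged genes called. With the length trend removed, 46.2% of changes of 0.5 were recovered over 8009 genes. Simulated noise was drawn separately for each gene, with no shift shared by all genes of a library. The size factors of these libraries differ, so the simulated counts do not give the error rate in these data.

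Members and lists were chosen with earlier results of these data known. Library values are given for called members and the 2 smallest p of each role group, up to 5, and for Gla, Ctsl, Atp6v0b, Atp6v1f and Tfeb, and Gusb is named, chosen after their values were seen. Other lists name up to 4 called genes of smallest p. Promoters were RefSeq windows.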

Additional observations from a re-analysis of the deposited data

Results flagged for a closer look

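Among 122 groups of 4 libraries examined over the members and list sums, 5 held a library that stood apart, where the gap to its nearest neighbour was above Dixon's critical value for its share of the group's range. Chance gives about 1 in 20 groups, here 6.1. Ctsl was at 43.4 TPM in obese replicate 4 against 49.3 to 49.8 TPM in the other obese libraries. The summed V1 sector was at 391 TPM in the same library against 424 to 430.2 TPM. Weight-cycled replicate 1 held the other 3 values. Ctsz, the cysteine carboxypeptidase cathepsin Z, was at 17.1 TPM there against 11.7 to 12.3 TPM in the rest of its group. Atp6v0a2 was at 6.05 TPM against 3.49 to 3.78 TPM. The summed acinar markers, genes of the exocrine pancreas, were at 7601 TPM against 3272 to 3748 TPM.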

How the results depend on the processing

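The 15 lower and 0 higher members stayed within 1.5 times under pseudocounts of 0.1 (15) and 5 (16), a mean of at least 5 TPM (13 of 29 tested), TPM rescaled after hormone, acinar and mitochondrial genes were left out (13) and an untrended variance (14). Lower calls among all tested genes were also close to the 1946 of the main fit in most of these settings. They were 1841 and 2020 under pseudocounts of 0.1 and 5, 1451 in rescaled TPM and 1969 with the untrended variance. Most of the remaining settings changed the member counts, and the cause was not tested. Without a filter on low values 0 members, 0 other lysosomal and autophagy genes and 0 of all 19482 genes were called in either direction by limma. The unadjusted limma p was under 0.05 for 24 of 37 members and for 5686 of all 19482 genes. The mean of at least 5 TPM left 3480 genes tested and 1001 called lower.

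Median-of-ratios scaling gave 0 members lower and 1 higher, 0 other lysosomal and autophagy genes lower and 2 higher, 46 of all genes lower and a members' median of 0.063. It turned the direction of 15 members, with log2 fold changes of Ctsa 0.14, Ctsb 0.15, Ctsd 0.076, Ctsz 0.11, Hexa 0.073, Lipa 0.053, Npc2 0.23, Lamp2 0.15, Cd63 0.16, Scarb2 0.074, Mcoln1 0.10, Atp6v0d1 0.0045, Atp6v0e 0.25, Atp6v1g1 0.11 and Atp6ap2 0.080. Quantile scaling gave 3 and 1 members, 0 and 3 other genes, 122 and 165 of all genes and a median of -0.15, and turned log2 fold changes positive at Ctsa 0.030, Ctsz 0.027, Lipa 0.12, Npc2 0.067, Scarb2 0.0026 and Mcoln1 0.10. Removal of the length trend gave 1 and 1 members, 1 and 2 other genes, 124 of all genes lower and a median of -0.029, and turned log2 fold changes positive at Ctsb 0.20, Ctsd 0.013, Hexa 0.0085, Lipa 0.17, Npc2 0.23, Lamp2 0.094, Scarb2 0.14, Npc1 0.031, Atp6v0a2 0.12, Atp6v0e 0.069 and Atp6ap2 0.032. With the longest transcript, chosen after the data were seen, it gave 0 and 2 members, 3 and 3 other genes, 163 and 180 of all genes and a median of -0.055, and turned log2 fold changes positive at Ctsa 0.13, Ctsb 0.17, Lipa 0.13, Npc2 0.19, Lamp2 0.13, Scarb2 0.11, Mcoln1 0.047, Atp6v0a2 0.084 and Atp6v0e 0.18.

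Leaving out 1 library at a time, with and without the 2 scalings (the scaled ones chosen after the data were seen), gave 0 to 24 lower and 0 to 7 higher members. Without weight-cycled replicate 1 the scaled values gave 6 lower and 7 higher, and the length-corrected ones 8 and 7. In unscaled TPM it gave 0 to 53 lower and 0 to 1 higher other genes, and 0 to 4390 lower and 0 to 270 higher of all genes. The members' median then stayed between -0.31 and -0.22.

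Replicate numbers are shared by the groups but not said to pair animals. Deviations of same-numbered libraries correlated between -0.28 and 0.23, those of other-numbered libraries between -0.34 and 0.31, and 2 of 8 libraries correlated best with their own number, so the data do not show pairing. With the replicate block, 15 members were lower and 0 higher, 14 of them shared with the fit without it, and 2754 genes were lower and 149 higher. With the block and scaling, or with the block and the length trend removed, 0 members were lower and 1 higher.

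TPM keep no depth, so counting error is unknown, and 4 libraries a group limit what the test can call.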
